A study of Mus musculus with 4 samples.

Results

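The cells described here are postnatal day 7 (P7) cells of the mouse hypothalamus that expressed the motile cilia factor Foxj1 and held little or no Ccno, the gene of an early step of multiciliation. They were chosen from the raw counts of unique molecular identifiers (UMIs, each the tag of 1 captured RNA molecule) as every P7 cell with at least 5 Foxj1 UMIs and at most 2 Ccno UMIs. The rule found 271 of 8917 P7 cells, or 3.04% (95% exact Clopper-Pearson interval 2.69 to 3.42), and the whole series holds 43261 cells. The study followed descendants of Rax-expressing neuroepithelium in C57BL/6J mice of genotype Rax-CreERT2::Ai14, in which tamoxifen lets a Cre recombinase made in Rax-expressing cells switch on the red reporter tdTomato. Tamoxifen was given at embryonic day 9 in the design text and 9.5 in the protocol, and hypothalami were taken on E11 and E14 and on P0 and P7, each age as 1 sample (other labels place E11, E14 and P7 a fraction of a day later). Live tdTomato-positive cells were sorted, and 3-prime droplet libraries were sequenced. All groups below carry the same driver, reporter and tamoxifen dose, so the series holds no unlabelled or wild-type control, and the number of animals per sample is not given in the labels.

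Ependymal cells line the brain ventricles and carry tufts of motile cilia that move cerebrospinal fluid. A cell that becomes multiciliated leaves the cell cycle and switches on Gmnc, Mcidas, Foxn4, Myb and Ccno. It then builds many centrioles at once on deuterosomes, which need Deup1 and the kinase Plk4, and docks them at its apical surface as basal bodies. Foxj1 and RFX factors drive the genes of the axoneme, the microtubule shaft of the cilium, with its dynein motors, radial spokes and central pair.

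Values are UMIs per 1000000 UMIs (CPM), taken over the summed UMIs of a group of cells, and intervals are exact Poisson or exact conditional 95% intervals that cover counting error only. No age had a replicate sample, and therefore no test was made and no p-value is given. The low-Ccno cells were set beside 3 other groups of the same P7 sample and beside P0. The Ccno-high cells (281) had at least 5 Foxj1 and at least 3 Ccno UMIs. The tanycyte-type cells (245) had at least 3 Rax and at most 1 Foxj1 UMIs; tanycytes are the Rax-expressing radial cells of the third ventricle floor. The astrocyte-type cells (1549) had at least 1 UMI each of Aqp4 and Agt, no Rax and at most 1 Foxj1, and the P0 cells (55) met the rule of the low-Ccno cells. Since all 4 comparisons share the low-Ccno cells, they are not independent of each other. A gene was counted in a comparison if the mean of both groups' levels was at least 20 CPM, and was called higher or lower past 2-fold after 5 CPM had been added to both levels.

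Median UMIs per cell were 16587 in the low-Ccno cells, 20161 in the Ccno-high cells, 10712 in the tanycyte-type cells, 10016 in the astrocyte-type cells and 13963 in the P0 cells. All 271 low-Ccno cells held tdTomato, at a lowest, median and highest level per cell of 281, 1631 and 6279 CPM, against a median of 912 CPM in the other P7 cells. All 281 Ccno-high and all 245 tanycyte-type cells held it too, at medians of 1288 and 2069 CPM. Of all 8917 P7 cells, 74 held none. Barcodes of 72 P7 cells, 3 of them low-Ccno cells, also occurred in another run of the series. The program Scrublet called 238 of the 8917 P7 cells doublets (2.67%), with 14 of the 271 low-Ccno cells and 15 of the 281 Ccno-high cells among them.

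**Figure D1:**
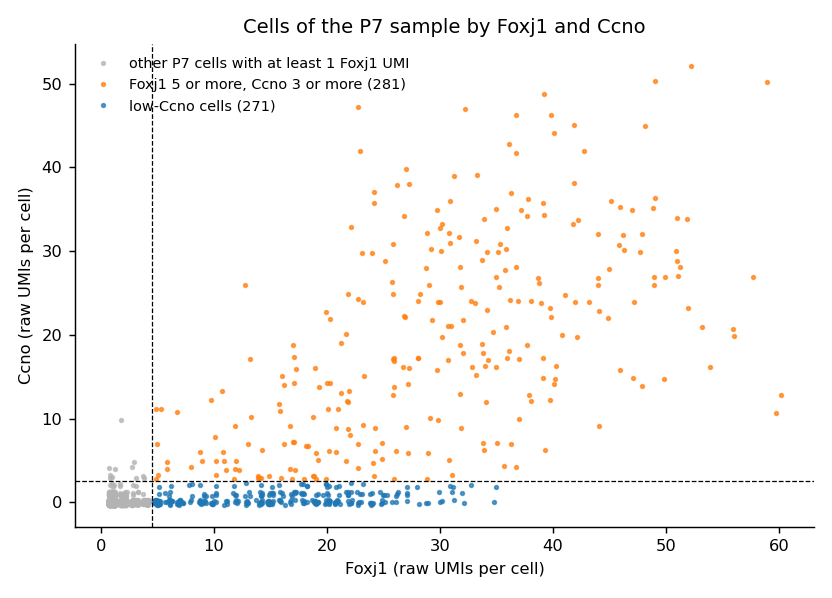
Each point is 1 cell of the P7 sample with at least 1 Foxj1 UMI, placed by its raw UMIs of Foxj1 (x axis) and Ccno (y axis) with a small random offset, and the dashed lines are the limits of the rule. The 271 low-Ccno cells (blue) form the row at the bottom right, and the 281 Ccno-high cells (orange) spread upward from it without a gap.

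Foxj1 and Ccno chose the cells, so their values are a description. Foxj1 stood at 938 (95% interval 910.3 to 967) CPM and Ccno at 27.8 CPM, with 174 cells at 0 Ccno UMIs, 68 at 1 and 29 at 2. Just outside the limit, 20 cells with at least 5 Foxj1 UMIs had 3 Ccno UMIs. At the other limit, 26 cells had 5 Foxj1 UMIs and 14 had 6, while 80 cells with little Ccno had 3 and 37 had 4. In the 117 cells with 3 or 4 Foxj1 UMIs Tmem212 stood at 134 CPM and Rax at 139.9 CPM, and in the 40 with 5 or 6 at 392 and 139 CPM, so the cells at the limit were alike in Rax and differed in Tmem212. The plot of Foxj1 against Ccno shows no gap at either limit. By age, the rule found 0 of 5114 cells at E11, with an upper 95% Clopper-Pearson limit of 0.0721%. It found 5 of 17150 at E14, 55 of 12080 at P0 (0.455%) and 271 at P7, so the cells were found mainly after birth. The 281 Ccno-high cells of P7 compare with 14 at P0, 0 at E14 and 4 at E11.

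The other fixed ependymal markers, Ccdc153, Tmem212, Rarres2 and Mia, were present in most of the cells but not in all. Tmem212, a membrane protein gene of ciliated cells, had a lowest, median and highest level per cell of 0, 1262 and 3937 CPM in the low-Ccno cells. It had 0, 397 and 2370.2 CPM in the Ccno-high cells, and the ranges overlapped. Tmem212 UMIs were seen in 89.7% of low-Ccno cells, against 4.90% of tanycyte-type and 3.81% of astrocyte-type cells, where the gene should be absent (median depths as above). After every cell had been thinned to 2500 UMIs these shares were 81.5%, 1.22% and 0.775%. Ccdc153, which codes for a coiled-coil protein of ciliated cells, had 0, 1081 and 3525 CPM per cell and was at 0 in 36 of the 271 cells. Rarres2, the gene of the secreted protein chemerin, had 0, 699.5 and 6699 CPM per cell. Its spread was the widest of these, with a mean of 1162 ± 1251 CPM (SD over cells). Mia did not mark ependymal cells alone, since it stood at 242 CPM in the low-Ccno cells, 268 CPM in the tanycyte-type cells and 9.72 CPM in the astrocyte-type cells.

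In 36 of the 271 cells there were 2 Tmem212 UMIs or fewer, and their markers went against the label. They lay near the Foxj1 limit, where 28 of the 40 cells with 5 or 6 Foxj1 UMIs were of this kind, against 5 of 32 with 7 to 9, 2 of 48 with 10 to 14, 1 of 63 with 15 to 19 and 0 of 88 with 20 or more. Ccdc153 stood at 36.2 CPM in them against 1282 CPM in the other 235 cells, the inner arm dynein gene Dnah3 at 2.01 against 179 CPM, and the radial spoke gene Rsph1 at 237 against 1668 CPM. Marker lists of several other cell types were higher in them. Rax stood at 139 against 7.69 CPM, Col23a1 at 231 against 14.4 CPM, and Gfap, the intermediate filament of astrocytes, at 409.7 against 51.1 CPM. The summed level of the 14 tanycyte markers was 1097 CPM in the 36 cells and 169 CPM in the 235, with no marker at 0 in either. Neuron markers summed to 665 and 272 CPM, with 1 of 10 at 0 in the 36 cells, and endothelial markers to 125 and 46.2 CPM, with 2 and 1 of 7 at 0. Astrocyte markers summed to 3583 and 1463 CPM, radial glia markers to 6726 and 2888 CPM, oligodendrocyte precursor markers to 496 and 234 CPM and intermediate progenitor markers to 1761 and 971 CPM. Choroid plexus markers were lower, at 12.1 and 68.0 CPM. Median UMIs were 12379 and 16992, and Scrublet called 0 of the 36 doublets. Tmem212 itself split these cells, so the contrast is a description. The 36 cells stay in the totals given for the whole group, and are left out wherever the text says cells with Tmem212.

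**Figure D2:**
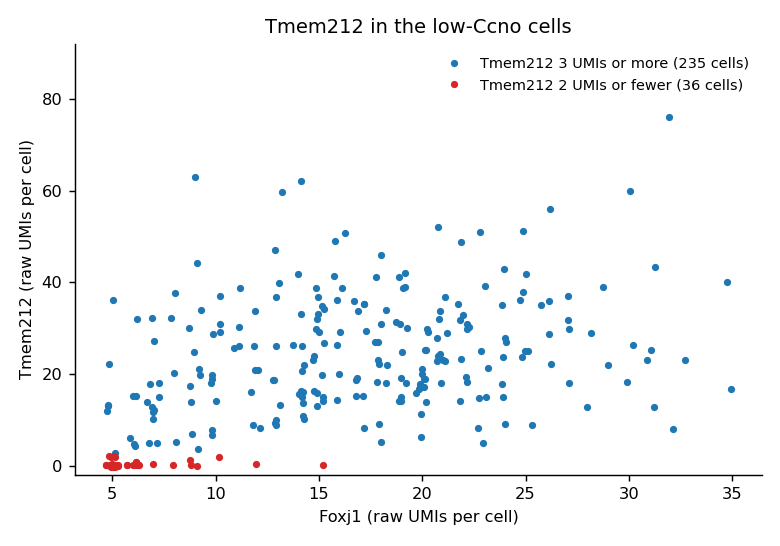
Each point is 1 of the 271 low-Ccno cells, placed by its raw UMIs of Foxj1 (x axis) and Tmem212 (y axis) with a small random offset. The 36 cells with 2 Tmem212 UMIs or fewer (red) sit at the left, and none of the 88 cells with 20 or more Foxj1 UMIs is among them.

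Summed markers of other cell types differed by type. Neuron markers summed to 315 CPM, against 1551 CPM in the astrocyte-type and 1718 CPM in the tanycyte-type cells. Their medians per cell lay closer, at 183, 285 and 391 CPM, and the highest cells stood at 3432, 13181 and 9766 CPM. Microglia markers summed to 9.94 CPM with 1 of 8 at 0. Choroid plexus, the secretory epithelium that also carries cilia, was represented by 61.9 CPM over 10 markers, with its defining gene Ttr at 0, and most of this was Folr1 at 37.8 CPM. Intermediate progenitor markers were not lower: they summed to 1058 CPM, against 643 CPM in the Ccno-high, 934 CPM in the tanycyte-type and 523 CPM in the astrocyte-type cells, with 1 of 9 at 0. Fibroblast markers summed to 123 CPM, against 108 and 127 CPM in the tanycyte-type and astrocyte-type cells, with 3 of 6 at 0, and mural cell markers summed to 4.42 CPM. Endothelial markers summed to 54.8 CPM and those of oligodendrocyte precursors to 263 CPM, against 1159 CPM in the astrocyte-type cells. Astrocyte markers summed to 1696 CPM against 8572 CPM in the astrocyte-type cells, and Aqp4 and Agt, which chose that group, are among these markers. In sum, 250 of the 271 cells (92.3%) held at least 5 UMIs of markers of neurons, the oligodendrocyte lineage, microglia or vessels. Most P7 cells of the whole sample also reached this limit, as the number left without them in the closing section shows. The part of these markers in the results below was not tested.

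Set beside the tanycyte-type cells, the low-Ccno cells were set apart by the motile cilium. Of 7858 genes counted, 1215 (15.5%) were at least 2-fold higher in the low-Ccno cells and 762 (9.7%) at least 2-fold lower, with a median log2 fold over all genes of -0.13. Against the astrocyte-type cells, 1413 of 7975 genes (17.7%) were higher and 1139 (14.3%) lower, with a median of -0.10. The axoneme lists lay far above these shares. In the doublet microtubule list, 21 of 21 counted genes were higher than in either group, with a median log2 fold of 2.46 against the tanycyte-type and 4.61 against the astrocyte-type cells. All 9 counted outer arm dynein genes were higher in both comparisons (medians 2.92 and 4.29), as were 11 of 11 counted genes of radial spokes (2.62 and 4.28), of the central pair (2.80 and 4.66), of the nexin-dynein complex (2.52 and 4.22) and of dynein assembly (2.43 and 3.74). Of 12 inner arm dynein genes, 11 were higher than in tanycyte-type cells and 12 than in astrocyte-type cells (3.66 and 4.85). Since Foxj1, a driver of these genes, chose the cells, their direction is not independent of the choice.

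Among the single components, Tubb4b, a beta-tubulin of axonemes, had a lowest, median and highest level per cell of 257, 6475 and 18308 CPM in the low-Ccno cells against 0, 607 and 4593 CPM in the tanycyte-type cells. Rsph1, a head protein of the radial spoke, had 0, 1464 and 3851 against 0, 68.5 and 671 CPM, and the astrocyte-type cells reached at most 371 CPM. The medians lay far apart while the lowest low-Ccno cells overlapped the other groups. The outer arm heavy chain gene Dnah9 stood at 285, 33.4 and 4.31 CPM in the low-Ccno, tanycyte-type and astrocyte-type cells. Spag17, a central pair protein, stood at 333, 2.62 and 1.26 CPM, and the dynein assembly factor gene Dnaaf1 at 132, 2.62 and 0.819 CPM. The levels in tanycyte-type cells differed by component. Ccdc114, which docks outer arms, had 92.3 CPM there against 199 CPM in the low-Ccno cells, and Dnajb13, a spoke protein, 61.9 against 137 CPM.

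Transport along the cilium differed less than the axoneme itself. Of 21 counted genes for intraflagellar transport, the train that carries cargo in cilia of all kinds, 19 were at least 2-fold higher than in tanycyte-type cells (median 1.73) and 21 of 21 than in astrocyte-type cells (2.33). Of the 9 BBSome genes, which form a cargo adaptor of cilia, 5 and 7 were higher (medians 1.09 and 1.64). Of 10 counted tubulin-modifying enzymes, 6 were higher than in the tanycyte-type cells and 0 lower (median 1.06). Among them Ttll9 stood at 92.8 against 6.88 CPM, while the acetylase gene Atat1, which did not pass 2-fold, stood at 66.9 against 109 CPM. Of 11 counted planar polarity genes, which orient the cilia of a cell, 3 were higher than in the tanycyte-type cells and 0 lower (median 0.24). Vangl1 was among the 3, at 59.6 against 12.1 CPM, while Vangl2 stood at 49.5 against 78.9 CPM. Against the astrocyte-type cells 5 of 10 planar polarity genes were higher and 1 lower (0.80). Of all genes, 15.5% were higher and 9.7% lower than in the tanycyte-type cells, and 17.7% and 14.3% than in the astrocyte-type cells.

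Promoters of these genes are shown because RFX factors bind a known element, the X-box, near the start of many cilia genes. The search used the half-sites GTTNCC and GNAAC with 3 free bases between them, where N is any base, on both strands of the 250 bases before each RefSeq gene start (assembly GRCm38.p6), with no overlap with the second motif below in the promoters shown. A match was found for 7 of 75 genes (9.33%) with a promoter in that table out of 97 in the axoneme and dynein assembly lists. It was found for 3 of 29 (10.3%) matched genes, of 33, of the intraflagellar transport and BBSome lists, for 0 of 18 of the centriole list, and for 212 of 27025 (0.784%) of all genes. The 4 of those 10 genes with the highest level in the low-Ccno cells follow, 5-prime to 3-prime, with the match in capitals. Cfap45, an inner protein of doublet microtubules, lies at chr1:172520880-172521129, plus strand, and its match begins 19 bases before the start. Hydin, of the central pair, lies at chr8:110266727-110266976, plus strand, with the match 21 bases before the start. Iqca, of the nexin-dynein complex, lies at chr1:90153437-90153686, minus strand, with the match 100 bases before, and Cfap44, an axoneme protein, at chr16:44394549-44394798, plus strand, with the match 27 bases before.
Cfap45: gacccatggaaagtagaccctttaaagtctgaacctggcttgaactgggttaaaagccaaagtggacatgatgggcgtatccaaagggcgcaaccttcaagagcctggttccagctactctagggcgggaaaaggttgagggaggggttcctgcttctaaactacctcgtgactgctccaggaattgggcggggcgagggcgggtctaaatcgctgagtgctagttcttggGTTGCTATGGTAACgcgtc
Hydin: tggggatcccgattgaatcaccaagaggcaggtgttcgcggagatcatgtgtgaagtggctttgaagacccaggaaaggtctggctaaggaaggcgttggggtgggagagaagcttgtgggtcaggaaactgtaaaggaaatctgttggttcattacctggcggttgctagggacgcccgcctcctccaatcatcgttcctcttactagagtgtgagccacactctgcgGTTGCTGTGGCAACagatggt
Iqca: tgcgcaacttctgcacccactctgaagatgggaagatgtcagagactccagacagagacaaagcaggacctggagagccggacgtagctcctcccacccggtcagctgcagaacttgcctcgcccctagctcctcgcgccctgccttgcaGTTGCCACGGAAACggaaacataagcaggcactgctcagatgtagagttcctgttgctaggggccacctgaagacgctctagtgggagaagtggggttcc
Cfap44: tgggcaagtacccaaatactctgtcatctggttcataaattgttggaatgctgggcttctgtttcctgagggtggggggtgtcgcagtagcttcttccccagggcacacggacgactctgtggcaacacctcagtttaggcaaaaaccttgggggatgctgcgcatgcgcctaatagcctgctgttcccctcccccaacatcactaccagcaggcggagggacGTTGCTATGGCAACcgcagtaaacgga
These 4 genes stood at 404, 353, 276 and 238 CPM in the low-Ccno cells, at 56.3, 12.1, 21.3 and 33.4 CPM in the tanycyte-type cells and at 4.75, 1.31, 1.09 and 4.31 CPM in the astrocyte-type cells. A match says only that the letters are present, and binding was not measured.

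Among the 15 genes furthest above the tanycyte-type cells were Tmem212 and Ccdc153, the axoneme gene Spag17, the histidine decarboxylase gene Hdc, the cyclin gene Ccna1 and the homeobox gene Dlx4. Hdc, the enzyme that makes histamine, had 0, 723 and 2596 CPM per cell, 0, 317 and 1922 CPM in the Ccno-high cells and a median of 0 in tanycyte-type cells, so it was present in most cells of both Foxj1 groups. Hdc is 1 of 24 other ependymal genes that were listed, 21 of them counted in each comparison. Against the tanycyte-type cells 11 were higher and 1 lower (median 1.17), where 15.5% and 9.7% of all genes were. Against the astrocyte-type cells 8 were higher and 2 lower (0.47), where 17.7% and 14.3% were. Against the Ccno-high cells 5 were higher and 0 lower (0.60), where 4.33% and 5.06% were. Of the tanycyte markers, 11 of 11 counted were lower than in the tanycyte-type cells (median -2.54), with Rax, which chose that group, among them. Of the neuron markers 6 of 6 were lower. Their summed level in the tanycyte-type cells, 1718 CPM, lay well above their median per cell of 391 CPM. The 15 genes furthest below also held the neuropeptide genes Agrp (8.39 against 125 CPM) and Grp (1.77 against 75.3 CPM). Apart from Rax, which chose the tanycyte-type cells, the thyroid hormone-binding protein gene Crym stood at 36.9 against 773 CPM and the cell cycle inhibitor gene Cdkn1c at 18.3 against 337 CPM. Of 10 counted hypothalamic region genes, 9 were at least 2-fold lower, Rax itself included, and Zic2 was higher (median log2 fold -1.82). Lower ones included the transcription factor genes Tbx3 (1.99 against 77.6 CPM), Lhx2 (58.1 against 273 CPM) and Six3 (254 against 550.4 CPM). Against the astrocyte-type cells the lower genes included Hes5, a Notch target (47.7 against 786 CPM), the lipid-binding protein gene Fabp7 (667 against 9551 CPM) and the amino acid transporter gene Slc7a10 (31.8 against 449.8 CPM), while the glial gene S100b was the same at 191 CPM in both.

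Set beside the Ccno-high cells, the low-Ccno cells had lower levels of many centriole-building and mitotic genes. The axoneme lists had medians above 0, with most members within 2-fold. Ccno split these groups, so every value of this contrast is a description. Of 7615 genes counted, 330 (4.33%) were at least 2-fold higher in the low-Ccno cells and 385 (5.06%) at least 2-fold lower, with a median log2 fold of -0.01. Of the 22 genes of the centriole amplification list 16 were counted, 9 of them lower, Ccno itself included, and 0 higher (median -1.39). Against the tanycyte-type cells the list went the other way, with 6 of 8 counted genes higher and 0 lower (median 1.11). Against the astrocyte-type cells 7 of 9 were higher and 1 lower (1.40). Of all genes, 15.5% and 17.7% were higher in these 2 comparisons. Mcidas, a switch of the multiciliated fate, had a lowest, median and highest level per cell of 0, 0 and 242 CPM and was at 0 in 266 of 271 low-Ccno cells, against 0, 128 and 622 CPM in the Ccno-high cells. Deup1, the scaffold of deuterosomes, had 0, 81.3 and 2833 CPM against 0, 1135 and 3058 CPM. Deup1 was therefore 6.34-fold lower (95% interval 5.88 to 6.84) but not gone, and Mcidas was 103-fold lower (95% interval 47.2 to 282). Plk4 stood at 13.3 against 186 CPM, its partner Stil at 7.95 against 102 CPM and the basal body protein gene Hyls1 at 5.96 against 195 CPM. Gmnc, which acts at the top of the cascade, was low in both at 7.07 and 4.33 CPM, and Ccdc78, a deuterosome protein, went the other way at 98.5 against 64.5 CPM.

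Of the ciliogenesis regulators, 5 of 17 counted were lower, Ccno again included, and 1 higher. Lower factors of the early steps were Foxn4 at 13 against 133 CPM, Myb at 151 against 675 CPM and E2f7 at 8.61 against 112 CPM. The RFX factors differed the other way or little: Rfx2 stood at 109 against 64.7 CPM, Rfx3 at 107 against 75 CPM, and Rfx4 was the higher gene at 82.6 against 35 CPM. Trp73, a factor upstream of Foxj1, differed little (60.5 and 67.6 CPM). Foxj1 itself, which chose both groups, was lower but within 2-fold, with a median per cell of 957 against 1476 CPM.

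Of 14 counted genes of G2 and mitosis, 13 were lower in the low-Ccno cells (median -2.11), and of 9 counted replication genes 3 were (median -0.50). Against the tanycyte-type cells 5 of 8 counted genes of G2 and mitosis were higher and 0 lower (median 1.25). Against the astrocyte-type cells 0 of 12 were higher and 4 lower (-0.13). Of all genes, 15.5% were higher in the first of these comparisons and 14.3% lower in the second. Top2a, a topoisomerase of dividing cells, was at 0 in 172 of the 271 cells and ran up to 1301 CPM, while the Ccno-high cells had 0, 619.7 and 1864 CPM. Cdk1 was 8.9-fold lower (95% interval 7.7 to 10.3), and Ccnb1, its cyclin, stood at 33.4 against 147 CPM. Mki67, a marker of cycling cells, was low in both groups at 7.95 and 12.3 CPM, against 61.5 CPM in the astrocyte-type cells. Multiciliating cells are known to reuse mitotic regulators without dividing, and these counts do not tell the cell cycle state. The inhibitor gene Cdkn1a was lower too, at 136 against 441 CPM.

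Axoneme genes differed by less, and most did not pass 2-fold. Of all genes, 4.33% were higher and 5.06% lower in this comparison. None of the counted dynein arm, nexin-dynein, central pair and doublet genes was lower past 2-fold. Outer arm dyneins had a median log2 fold of 0.56 with 3 of 9 past 2-fold, inner arm dyneins 0.57 with 3 of 12, the nexin-dynein complex 0.53 with 1 of 11, the central pair 0.42 with 1 of 12 and doublet microtubules 0.36 with 2 of 22. Dnah3 was 3.49-fold higher (95% interval 3.02 to 4.04), Armc4, an outer arm docking protein gene, 3.19-fold higher (95% interval 2.67 to 3.83), and Dnah5 1.88-fold higher (95% interval 1.66 to 2.13). Genes that assemble or carry the parts had medians nearer to 0. Dynein assembly genes had a median of 0.19 with 0 of 12 past 2-fold in either direction, and Zmynd10, one of them, stood at 416 against 647 CPM. Intraflagellar transport genes had a median of 0.10, with the small train subunits Ift20 (535 against 1041 CPM) and Ift22 (407 against 722 CPM) below and Ift88 (94.8 against 35.5 CPM) above. Radial spoke genes had a median of 0.12, and their only member past 2-fold was Rsph4a at 334 against 139 CPM.

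**Figure D3:**
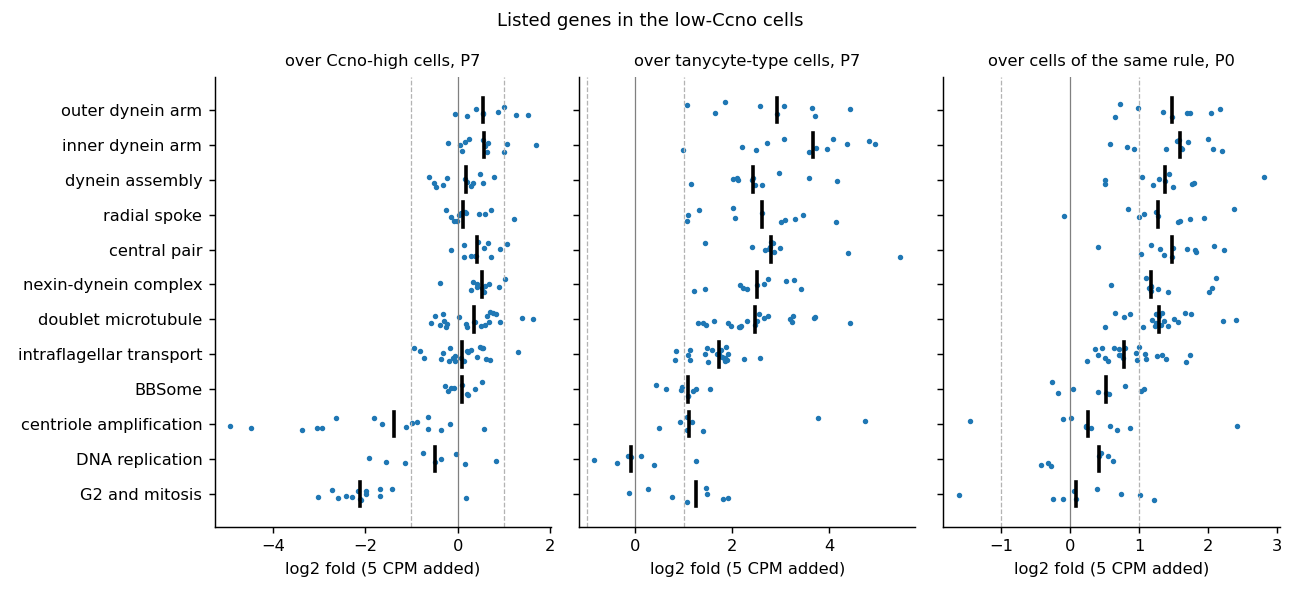
Each point is 1 counted gene of the list named at the left, placed by its log2 fold (5 CPM added, x axis) in the low-Ccno cells over the Ccno-high cells, the tanycyte-type cells and the P0 cells, the black bar is the median and the dashed lines mark 2-fold. The medians of the axoneme lists lie right of 0 in all 3 panels. Those of the centriole amplification and mitosis lists lie left of 0 over the Ccno-high cells, at -1.39 and -2.11. They lie right of 0 over the tanycyte-type cells, at 1.11 and 1.25, and near 0 over the P0 cells, at 0.26 and 0.08.

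The 15 genes furthest above the Ccno-high cells included Sntn, Cdhr3, Slc2a1, Stoml3 and Gas6. Sentan (Sntn), a protein of ciliary tips, stood at 51.7 (95% interval 45.3 to 58.8) CPM against 2.88 CPM in the Ccno-high cells, with 78 of 271 cells holding a UMI (28.8%) against 2.85% of Ccno-high and 0.194% of astrocyte-type cells. The cadherin gene Cdhr3 was 7.46-fold higher (95% interval 5.64 to 10.02), and the glucose transporter gene Slc2a1 was 5.34-fold higher (95% interval 4.73 to 6.03). Stoml3, a stomatin of cilia, stood at 47.5 against 4.33 CPM, the growth arrest ligand gene Gas6 at 159.7 against 27.4 CPM, and the uncharacterised gene 3300002A11Rik at 648 against 95.4 CPM. A list of 8 apical and rootlet genes was drawn up after these values had been seen, and it includes Pcp4l1, the gene furthest above. That 6 were higher was thus partly set by the choice of members. Crocc2, a rootletin-like gene, was not higher (200.3 against 263 CPM). Furthest below, beside the centriole genes, were Shisa8 (49.7 against 665 CPM), Foxa2 (0.663 against 65.6 CPM) and Plvap (23.2 against 185 CPM).

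Among those 15 highest genes the X-box was absent from all 12 with a promoter in the table, and a second motif, the forkhead core GTAAACA on either strand, was present in 4 (33.3%), against 956 of 27025 genes (3.54%). Of the 15 genes highest over the tanycyte-type cells, 10 had a promoter in the table, and 0 of the 10 held either motif. The forkhead motif was chosen after the list was known. The 4 are Sntn, Anxa8, Stoml3 and Zp3, and Sntn (chr14:13670626-13670875, plus strand) and Stoml3 (chr3:53488457-53488706, plus strand) are printed with the match in capitals, which begins 236 and 92 bases before the start.
Sntn: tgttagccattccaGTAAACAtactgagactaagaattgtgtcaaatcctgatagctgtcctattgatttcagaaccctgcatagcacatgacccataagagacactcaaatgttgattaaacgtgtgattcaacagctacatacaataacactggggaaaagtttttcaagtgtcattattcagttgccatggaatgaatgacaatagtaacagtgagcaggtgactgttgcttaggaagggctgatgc
Stoml3: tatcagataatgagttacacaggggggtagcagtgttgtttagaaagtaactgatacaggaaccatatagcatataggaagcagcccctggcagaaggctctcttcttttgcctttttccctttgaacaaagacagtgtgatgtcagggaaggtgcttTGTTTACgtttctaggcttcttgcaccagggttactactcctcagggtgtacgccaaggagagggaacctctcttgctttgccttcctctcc
In the axoneme and dynein assembly lists the forkhead core was present in 3 of 75 genes (4.00%), near the share of all genes. Binding of a forkhead factor at these letters was not measured.

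The low-Ccno cells were not uniform in the centriole program, and Deup1 UMIs per cell ordered them. Of the 235 cells with Tmem212, 82 had 3 or more Deup1 UMIs, 86 had 1 or 2 and 67 had 0. Top2a stood at 662 in the Ccno-high cells, then 291, 67.9 and 7.35 CPM in these 3 classes. Cdk1 stood at 395, 94.7, 16.8 and 6.3 CPM in the same order. Mcidas was at 137, 1.82, 1.4 and 0 CPM, so it was near 0 in all 3 low-Ccno classes. Some genes ran the opposite way: Sntn stood at 2.88, 20.03, 60.2 and 121 CPM, Cdhr3 at 10.5, 38.8, 97.2 and 158 CPM and Tmem212 at 526, 1139, 1563 and 1825 CPM. The first step of Tmem212 is partly set by the choice of cells, since the 3 low-Ccno classes hold no cell with 2 Tmem212 UMIs or fewer and the Ccno-high cells hold 67. The lowest and highest of these classes did not overlap in their counting intervals for Sntn, with 20.03 (95% interval 13.8 to 28.1) CPM at 3 or more Deup1 UMIs and 121 (95% interval 99.7 to 145) CPM at 0.

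In the same order Zmynd10 stood at 647, 595, 409.9 and 293 CPM and Ift20 at 1041, 813, 438 and 373 CPM. The LIM protein gene Crip3 was highest in the middle of the order at 452, 674, 264 and 68.3 CPM, and the cyclin gene Ccna1 had 349.9, 666, 361 and 172 CPM. Of the axoneme genes, Dnah3 stood among the 3 low-Ccno classes at 169.9, 195 and 171 CPM and Rsph1 at 1881, 1666 and 1302 CPM. Some genes that other glia also express were higher where Deup1 was lower among the low-Ccno classes, and others were not: Dbi, the acyl-CoA binding protein gene, stood at 4497, 3569, 8232 and 13949.5 CPM, Vim at 375, 315, 788 and 1359 CPM and Aqp4, the water channel gene, at 34.8, 31.6, 84.6 and 170.2 CPM, while the astrocyte gene Agt stood at 99.5, 74, 68.6 and 77.7 CPM and Hes5 at 39.8, 43.1, 37.1 and 46.2 CPM. These genes were chosen after their values had been seen. Median UMIs along the order were 20161, 19505.5, 16372 and 13669, and a raw count sorts deeper cells into the higher class. Within cells of 12000 to 20000 UMIs, a window set after the data had been seen, the order was kept for Top2a (626, 292, 43.2 and 4.79 CPM), Sntn (4.68, 22.4, 72.8 and 149 CPM) and Ift20 (1007, 799, 404 and 376 CPM). Over all 271 low-Ccno cells, the 36 with little Tmem212 included, Deup1 followed Ccno in part. It was at 0 in 43.7% of cells with 0 Ccno UMIs, 19.1% with 1 and 10.3% with 2, in raw counts not adjusted for depth.

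**Figure D4:**
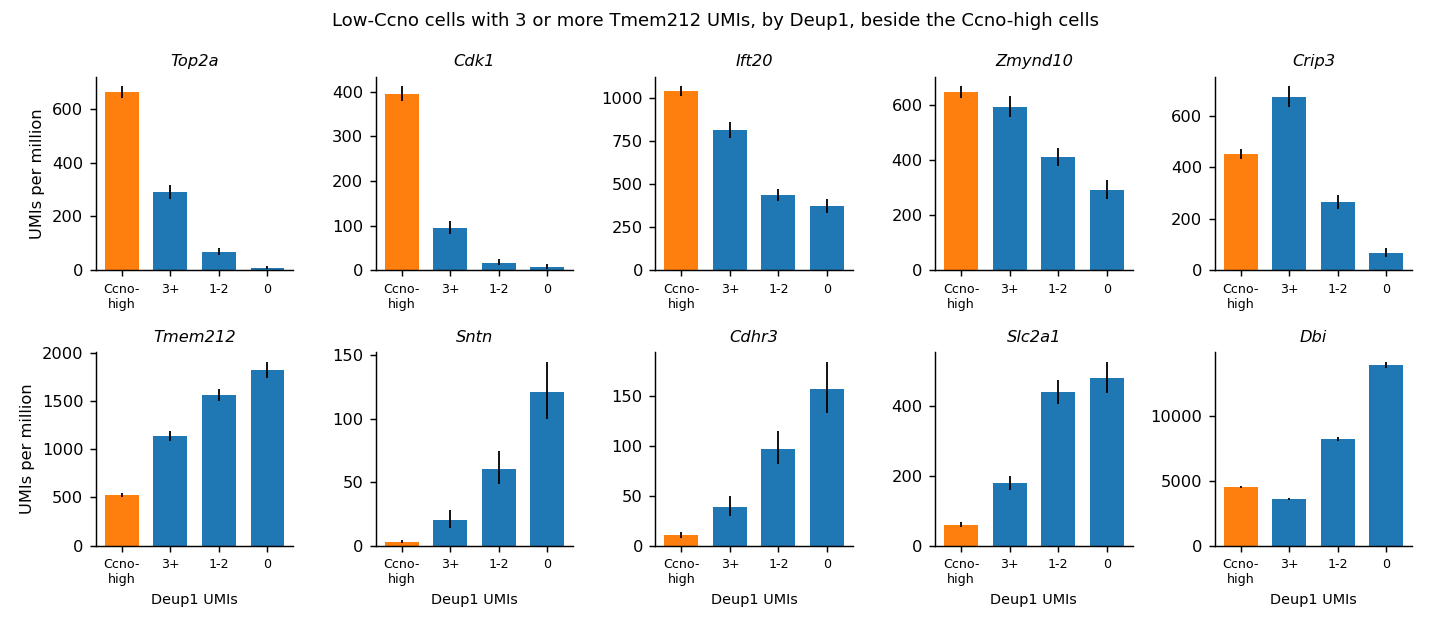
Bars give the level in CPM (y axis, from 0) of 10 genes in the 281 Ccno-high cells (orange) and in the low-Ccno cells with 3 or more Tmem212 UMIs split by Deup1 UMIs into 82, 86 and 67 cells (blue), with 95% Poisson intervals for counting error. Top2a, Cdk1, Ift20 and Zmynd10 step down from left to right, Tmem212, Sntn, Cdhr3 and Slc2a1 step up, and Crip3 peaks at 3 or more Deup1 UMIs.

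The low-Ccno cells were also ordered by their Mia UMIs, an order that partly ran with that by Deup1. Of the 235 cells with Tmem212, 69 had 0 Mia UMIs, 92 had 1 to 4 and 74 had 5 or more, with median UMIs of 17312, 16175 and 17411.5. The genes named here for this order were chosen after their values had been seen. Gas6 stood at 60.01, 129 and 314 CPM in these classes, the homeobox gene Msx1 at 27.1, 58.5 and 141 CPM, the tuberal homeobox gene Nkx2-4 at 6.58, 16.1 and 63.6 CPM, the keratin gene Krt8 at 27.1, 62.4 and 135 CPM and the calcium channel gene Cacna1s at 55.9, 41.8 and 234 CPM. Other patterning genes were lower with more Mia, with Zic1 at 56.7, 50.2 and 17.5 CPM, Zic4 at 92.1, 65.6 and 33.4 CPM and the nuclear receptor gene Nr2f1 at 381, 357 and 227 CPM. Six3, a homeobox gene, stood at 239, 244 and 234 CPM, and Rsph1 stood at 1742, 1708 and 1546 CPM. Deup1 was also lower with more Mia (236, 198 and 115 CPM), as was Top2a (179, 150.4 and 105 CPM), while Cdhr3 (64.9, 70.7 and 130.4 CPM), Dbi (5217, 7283 and 10541 CPM), Vim (481, 705 and 999.7 CPM) and Aqp4 (37.8, 69.4 and 144 CPM) were higher. Among the 118 of these cells with 0 or 1 Deup1 UMIs (19, 54 and 45 in the 3 classes), the steps were 119, 203 and 413 CPM for Gas6, 54.3, 97.8 and 208 CPM for Aqp4, 20.4, 73 and 176 CPM for Msx1, 78.1, 62.6 and 18 CPM for Zic1 and 431, 343 and 227 CPM for Nr2f1, in the same directions as before. Top2a was not, at 33.9, 19.6 and 63.7 CPM.

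**Figure D5:**
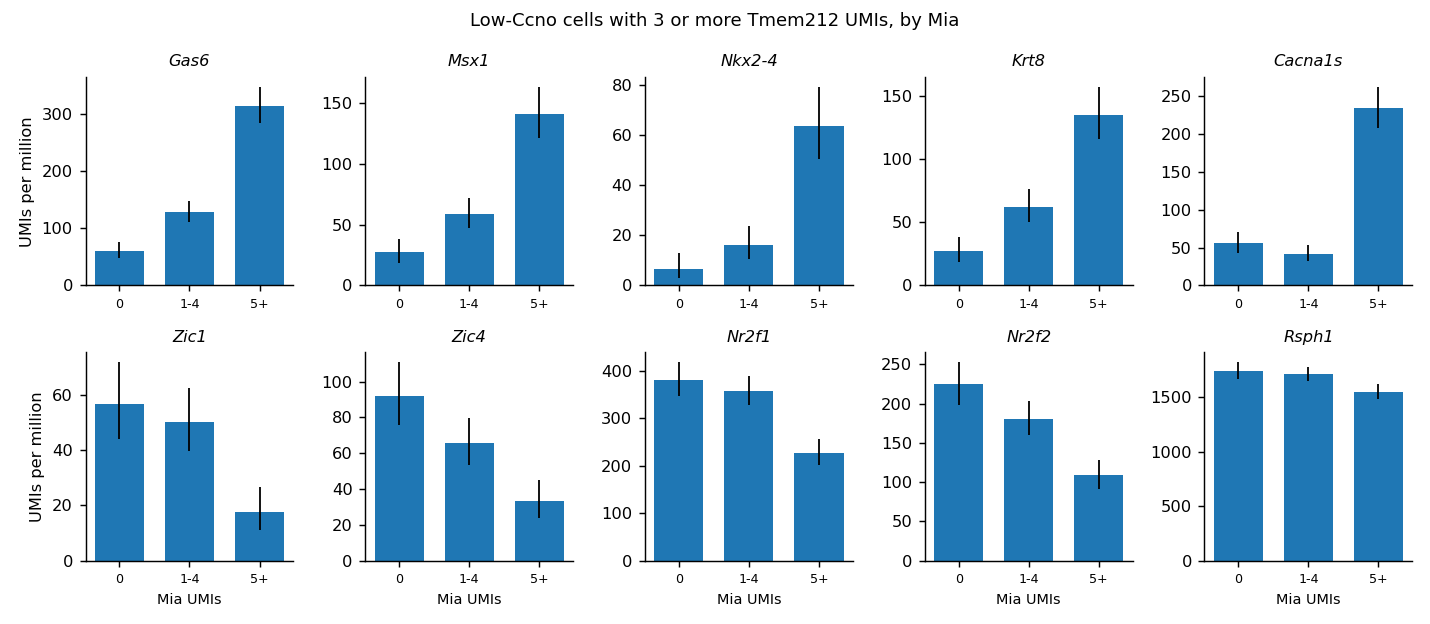
Bars give the level in CPM (y axis, from 0) of 10 genes in the low-Ccno cells with 3 or more Tmem212 UMIs, split by Mia UMIs into 69, 92 and 74 cells, with 95% Poisson intervals for counting error. Gas6, Msx1, Nkx2-4 and Krt8 step up with Mia, Zic1, Zic4, Nr2f1 and Nr2f2 step down, and Rsph1 changes little.

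After thinning to 2500 UMIs, the genes that varied most between the 271 cells were Dbi (variance over mean 18.5), the nuclear RNA Malat1 (13.7) and Nnat (10.9), a gene of neural tissue. Cpe, Cst3, Apoe, Ptn and Sparcl1, secreted products of glia, were among the first 25, and so were Hsp90aa1, Mt1, Tubb4b, S100a6, Fabp7, Rarres2, Gfap and Crip3. Some of these genes were higher in the 36 cells with little Tmem212, where Ptn stood at 2468 against 389 CPM in the other cells and S100a6 at 1064 against 235 CPM.

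Foxj1 cells of the same rule at P0 held less of all 5 ependymal markers, Foxj1 itself included, and 3 of them passed 2-fold: Tmem212, Ccdc153 and Rarres2. Of the 55 cells, 48 had 2 Tmem212 UMIs or fewer and 37 had 0. The other 7 had Ccdc153 at 882 CPM, Rsph1 at 1402 CPM and Top2a at 627 CPM. Per cell, Tmem212 had a lowest, median and highest level of 0, 0 and 1194 CPM at P0. Mia, at 122 CPM at P0 and 242 CPM at P7, did not pass 2-fold and was at 0 in 26 of the 55 cells, and Rarres2 was at 0 in 25. Set beside all 55, 843 of 7872 genes (10.7%) were at least 2-fold higher at P7 and 726 (9.22%) lower, with a median log2 fold of -0.09. Of the 21 counted genes of the list of other ependymal genes, 7 were higher at P7 and 3 lower (median 0.67). The ages are 1 sample each, so age cannot be told apart from sample. The 55 cells came from 2 runs of unstated difference, 24 in run 1 and 31 in run 2.

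Many axoneme genes were higher at P7, where 10.7% of all genes were. Tmem212 was 13.7-fold higher (95% interval 10.9 to 17.3), Rarres2 8.09-fold higher (95% interval 6.72 to 9.84) and Hdc 8.31-fold higher (95% interval 6.62 to 10.6). Of the outer arm list 6 of 9 counted genes were higher (median 1.47), of the inner arm list 9 of 12 (1.59), of the central pair list 11 of 12 (1.48), of the nexin-dynein list 10 of 11 (1.18), of the doublet list 17 of 21 (1.28), and of intraflagellar transport 8 of 22 (0.77). In each of these lists none was lower. Foxj1, Rfx3 and Rfx2 stood at 938, 107 and 109 CPM at P7 against 505, 198 and 40.8 CPM at P0. The runs differed for Tmem212, with 37.1 CPM in run 1 and 157 CPM in run 2. Krt8 and Sntn had no UMI at P0, so Krt8 was at least 18.4-fold and Sntn at least 14.4-fold higher at P7, against a floor of 3 UMIs over the P0 cells.

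Several genes of progenitors and of patterning were lower at P7, and so were the summed markers of several other cell types, though not of all. Beside the list counts below, 9.22% of all genes were lower at P7 and 10.7% higher. At P7 and P0, tanycyte markers summed to 271 and 664 CPM (3 of 7 counted were lower), neuron markers to 315 and 622 CPM, microglia markers to 9.94 and 106 CPM and erythroid markers to 13.3 and 143 CPM, while those of oligodendrocyte precursors summed to 263 and 76.8 CPM and those of intermediate progenitors to 1058 and 463 CPM. Per cell, the microglia and erythroid markers at P0 had a median of 0 and highest cells at 4382 and 588 CPM. The part of all these markers in the differences was not tested. Of 10 counted radial glia genes, 4 were lower and Hopx was higher (median -0.74). Fabp7, one of them, stood at 3829 CPM at P0 and 667 CPM at P7, the glutamate transporter gene Slc1a3 stood at 1593 and 493 CPM, and the guidance gene Ntn1 at 431 and 19.4 CPM. Of 12 counted Notch genes 4 were lower and 0 higher, of 9 BMP and Id genes 4 and 0, and of 10 Wnt genes 5 and 1, the higher one being Wnt4 at 121 against 16.8 CPM. In these lists Notch3 stood at 8.84 against 49.2 CPM at P0, Id3 at 43.7 against 175 CPM and Wnt5a at 26.5 against 156 CPM. Their medians were -0.89, -0.99 and -1.08. Of 5 counted Hedgehog genes, Shh (1.55 against 40.8 CPM) and its receptor Ptch1 (91.7 against 354 CPM) were lower. Wnt8b came mainly from 1 run, with 384 CPM in run 1 and 12.5 CPM in run 2. Xist, which is transcribed from the inactive X of females, had 0 UMIs at P7 and 148 CPM at P0, so it was at least 223-fold lower at P7 (floor of 3 UMIs over the group), and the sex of the animals is not given in the labels.

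In the comparison with the Ccno-high cells 0 of 9 Notch, 0 of 9 BMP and Id, 0 of 7 Wnt and 0 of 4 Hedgehog genes passed 2-fold, where 4.33% of all genes were higher and 5.06% lower. In the comparison with astrocyte-type cells, where 17.7% of all genes were higher and 14.3% lower, 5 of 12 Notch genes, 5 of 11 BMP and Id genes, 4 of 9 Wnt genes and 1 of 3 Hedgehog genes were lower. Higher there were 2 Wnt genes and the Notch target Hes1, at 214 against 73.7 CPM. Sox9, a glial factor that ependymal cells also express, stood at 937 CPM in the low-Ccno cells, 382 in the Ccno-high and 424 in the astrocyte-type cells. In the Deup1 classes from 3 or more UMIs to 0 it stood at 765, 1163 and 1093 CPM.

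Immediate-early and heat shock genes, which can respond to dissociation of tissue, differed with these comparisons. A list of 13 was added after the data had been seen. Of these, 11 were at least 2-fold higher at P7 than at P0 (median 1.43), 13 than in the astrocyte-type cells (2.46), and 4 than in the tanycyte-type (0.74) and 4 than in the Ccno-high cells (0.52). Of all genes, 10.7%, 17.7%, 15.5% and 4.33% were higher in these comparisons, in the same order. The summed level of the 13 listed genes was 15129 CPM in the low-Ccno cells, 17308 in the Ccno-high, 6830 in the tanycyte-type, 3372 in the astrocyte-type and 5892 in the P0 cells. Against the Ccno-high cells the summed level and the median thus differ in sign. Fos stood at 2547 CPM in the low-Ccno cells and at 1781, 2018, 1081 and 1429.6 CPM in the other 4 groups, and Atf3 at 304, 96.3, 337, 19.5 and 32.4 CPM. Their part in the differences between groups was not tested.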

How the data were processed

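The data are single-cell RNA counts from 4 samples, 1 per age. The deposited table holds raw UMI counts per gene and cell for the whole series (28879 genes, 43261 cells, 0 values negative or not whole). Per the submitters' processing notes the authors used Cell Ranger 3.0.2, Seurat and the mm10 build; the filter on cells is not given in the sources used here. Cells were assigned to ages and runs by the start of their names. Raw counts of the cells in each group were summed and divided by the group's total, without other normalization, with 5 CPM added for folds, a minimum mean of 20 CPM and a threshold of 2-fold. No model was fitted, because cells of 1 sample are not replicates. The computation was tested on simulated counts. The members and the gene lists were chosen with earlier results of these data known. Of 487 listed genes, 483 were in the table. Named genes were the 15 furthest each way in a comparison, list members with the highest level or largest fold, the 25 most variable genes, Foxj1, Ccno and the reporter; others are marked. Doublets were called with Scrublet in Scanpy 1.11.5 and kept. Python 3.11.15, numpy 2.4.6, scipy 1.17.1 and pandas 2.3.3 were used. Alternatives were the Foxj1 and Ccno limits, leaving out doublets or cells with markers of other types, per-cell means, centring, the added CPM, the minimum level, thinning and single P0 runs. Promoters came from RefSeq (GRCm38.p6).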

Additional observations from a re-analysis of the deposited data

How the results depend on the processing

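No paired analysis was possible because each age had 1 sample and no replicate numbers were shared. The share of 3.04% became 4.35% with Foxj1 at least 3, 2.23% at least 10, 1.95% with Ccno 0, 3.49% with Ccno up to 5, 10.8% (21 of 194 cells) without cells holding 5 or more UMIs of other types' markers, and 12.7% (202 of 1586) with a looser limit of 10 UMIs, without Cnp and Itm2a, added after the data had been seen. The tight limit left 21 low-Ccno cells. Against the Ccno-high cells, the 330 higher genes became 787 under the tight limit, 174 with 20 CPM added, 517 at a minimum of 5 CPM and 544 with no minimum, and the 385 lower genes 911 and 216 under the first pair of settings. Against the tanycyte-type cells, 1215 higher became 1987 with no minimum, and 762 lower became 380 (Foxj1 at least 3), 1247 (tight limit), 432 (20 CPM added), 1200 (minimum 5 CPM) and 1243 (none). Against the astrocyte-type cells, 1413 higher became 2291 with no minimum and 1139 lower became 713 (20 CPM added), 1747 (minimum 5 CPM) and 1806 (none). Against P0, 843 higher became 1379 with no minimum and 726 lower became 399 (Foxj1 at least 3), 1476 (tight limit), 359 (20 CPM added), 1122 (minimum 5 CPM), 1176 (none) and 1322 (P0 run 1 alone).

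Of 6101 recomputed gene folds, 4475 were classed as the same, 1608 as moved and 18 as changed in direction. Of 1488 recomputed list medians, 1397 were classed as the same, 91 as moved and 0 as changed in direction. A change of direction was counted only for values reported at a size of at least 1 on the log2 scale (2-fold). Smaller folds and medians, some of which changed sign, were not counted as such. The 18 were, against the Ccno-high cells, Col23a1 at -0.0675 without the 36 cells with little Tmem212, a setting added after seeing the data. Against the tanycyte-type cells, Grp became 0.85 under the tight and 0.10 under the looser limit. Against P0 under the tight limit, Crym became 0.85, Vcan 2.53, Mki67 0.85, Myb -0.00745 and Cdkn1a -0.64. With P0 run 2 alone, Slc6a11 became 0.15, G530011O06Rik 0.29 and Hbb-bs 1.37, and with run 1 alone CT010467.1 became 1.17 and Mki67 0.12. With Foxj1 at least 10, Qrfp became 0.0782, Myb -0.17, H2afx -0.0725 and Cdkn1a -0.16, and with Ccno 0 Mki67 became 0.25. The cause was not tested for these. The median of the tanycyte marker list against the Ccno-high cells went from 0.20 to -1.07 without the 36 cells, against the astrocyte-type cells from 0.32 to -0.90 and against P0 from -0.96 to -1.85. Without them, the lower genes numbered 983 against the tanycyte-type cells and 921 against P0. The 55 P0 cells limit the precision of folds for low genes.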
